A study of Mus musculus with 24 samples.

Results

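The genes described here are 46 cell cycle and DNA replication genes, chosen by symbol from a list and found in all 24 libraries of a table that holds 24346 symbols. They divide into 21 replication genes, which act in late G1 and S phase, and 25 mitosis genes, which act from G2 to the end of division. No value was at 0 for any of them in any library, and all 46 passed the filter on low values.

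RNA was sequenced from mouse colorectal tissue, labelled tumor or normal, of animals that had all received azoxymethane (AOM), a carcinogen, and dextran sulfate sodium (DSS), which inflames the colon. The normal tissue therefore comes from treated animals too, and no untreated colon was analysed here. The labels give 2 genotypes, wild type (WT) and c-MAF knockout (KO), for the transcription factor gene Maf. The KO titles add hetero or homo and a leading number, 1 or 8, whose meaning the labels do not give, and the WT titles add young or old. The groups are called KO-8-homo, KO-8-hetero and KO-1-hetero (3 tumor and 2 normal libraries each), WT-young, with 4 tumor and 2 normal libraries, and WT-old, with 1 tumor and 2 normal libraries. In all there were 9 KO-labelled and 5 WT tumors, and 6 KO-labelled and 4 WT normal libraries. The labels name no strain and give no age for the KO groups, and they do not say which part of Maf was removed, in which cells it was removed, or whether the libraries of a group came from separate animals, so p-values measure the spread between these libraries, which may in part be technical.

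A cell commits to division when cyclin E and the E2F factors open S phase. The MCM helicase, loaded on origins by CDC6 beforehand in G1, is then activated with CDC45 and the GINS complex. Meanwhile ribonucleotide reductase and thymidylate synthase supply nucleotides. In mitosis, cyclin B with CDK1 drives entry, condensins compact the chromosomes, kinesins and Aurora kinases build the spindle, and checkpoint kinases hold the cell until every chromosome is attached. In the colon, dividing cells lie in the lower crypt, and tumors of the AOM/DSS model are growths of this epithelium. In the E2F class of genes, transcription peaks around S phase. In the other class, a short element called CHR, often near CCAAT boxes, holds transcription back until G2.

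To show these elements, promoters are printed for 2 replication and 2 mitosis genes, those with the smallest p in the tumor against normal comparison of KO-labelled libraries among genes in the RefSeq promoter table (build GRCm38.p6; 250 bases before to 50 after each gene start). Letters in capitals mark matches on either strand to TTTCCCGC, TTTCGCGC, TTTGCCGC or TTTGGCGC (E2F), TTTGAA (CHR) or CCAAT (read as ATTGG on the other strand). In the window of Mcm7, 1 E2F match overlaps a CCAAT box by 1 base. Rrm2 lies at chr12:24708004-24708303 on the plus strand, Mcm7 at chr5:138171834-138172133, Kif23 at chr9:61946750-61947049 and Ncapd2 at chr6:125191537-125191836, these 3 on the minus strand.
Rrm2: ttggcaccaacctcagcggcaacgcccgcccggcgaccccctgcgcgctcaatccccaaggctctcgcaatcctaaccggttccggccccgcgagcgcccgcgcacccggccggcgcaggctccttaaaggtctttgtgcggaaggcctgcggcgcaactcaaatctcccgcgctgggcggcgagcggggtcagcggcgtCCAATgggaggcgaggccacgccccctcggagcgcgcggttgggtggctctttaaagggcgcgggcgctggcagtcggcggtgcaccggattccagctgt
Mcm7: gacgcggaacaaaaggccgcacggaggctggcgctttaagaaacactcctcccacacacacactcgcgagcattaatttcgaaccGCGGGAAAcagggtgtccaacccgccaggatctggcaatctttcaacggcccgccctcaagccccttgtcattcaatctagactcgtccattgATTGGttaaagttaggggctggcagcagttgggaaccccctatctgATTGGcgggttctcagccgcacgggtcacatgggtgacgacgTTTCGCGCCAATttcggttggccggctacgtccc
Kif23: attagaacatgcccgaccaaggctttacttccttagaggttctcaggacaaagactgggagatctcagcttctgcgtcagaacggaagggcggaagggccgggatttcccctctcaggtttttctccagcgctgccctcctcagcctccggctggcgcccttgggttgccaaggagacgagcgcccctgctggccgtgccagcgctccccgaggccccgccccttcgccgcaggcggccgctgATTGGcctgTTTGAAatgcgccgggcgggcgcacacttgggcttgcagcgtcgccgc
Ncapd2: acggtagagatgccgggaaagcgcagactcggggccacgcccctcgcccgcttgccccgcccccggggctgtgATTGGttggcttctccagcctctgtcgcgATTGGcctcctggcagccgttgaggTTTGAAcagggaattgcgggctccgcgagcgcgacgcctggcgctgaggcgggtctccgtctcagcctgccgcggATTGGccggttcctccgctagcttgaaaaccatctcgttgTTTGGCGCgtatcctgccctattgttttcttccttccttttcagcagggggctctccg
The Rrm2 window held 1 CCAAT box and neither of the other motifs. The Mcm7 window held 2 E2F matches and no CHR, and a second Mcm7 window, not printed, held 1 CCAAT box alone. In Kif23 a CCAAT box was followed closely by a CHR match, which lay just after the gene start. Ncapd2 held all 3 kinds.

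Windows were found for 18 of the 21 replication genes and 20 of the 25 mitosis genes. A CHR match lay in 15 of the 20 mitosis windows (75%), against 3 of 18 replication genes (16.7%) and 20.2% of all 27025 genes in the table. All 15 of these mitosis genes also had a CCAAT box, a pairing found in 7.97% of all genes. An E2F match lay in 7 of 18 replication genes (38.9%), which were Cdc6, Hells, Mcm3, Mcm5, Mcm6, Mcm7 and Uhrf1, and in 3 of 20 mitosis genes (15%), Cdk1, Ncapd2 and Ncapg, against 2.6% of all genes. A match is a description of the letters in this window and not evidence of a bound site. Aurkb, Ccna2, Ccne2, Foxm1, Gins2, Kif20a, Mcm4 and Tpx2 had no entry in the table.

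Maf was not lower in the libraries labelled KO, with a median of 4.46 FPKM (fragments scaled by transcript length and library depth) in KO-labelled tumors and 1.92 FPKM in WT tumors, so directions are given for the labels. Xist reached 1 FPKM in 6 libraries, all of them in the 2 hetero groups, 2 tumors and 4 normal libraries. These included every hetero normal library (7.38 to 30.3 FPKM), while every WT library was under 1 FPKM. Between hetero and WT normal tissue, group and Xist therefore cannot be told apart. Relative depth ran from 0.690 to 1.87 of the typical library. The second KO-8-hetero normal library stood apart. Each gene's deviation in it from the mean of the normal libraries was correlated with transcript length (r = -0.355) and GC content (r = 0.435) over 13305 genes. Both lay beyond the ranges of the other 23 libraries, each set against its own tissue's mean (-0.184 to 0.237 and -0.399 to 0.228). The summed FPKM of the second KO-8-hetero normal library was also the highest, and results that rest on it are given with and without it. As mean log2(FPKM + 1) over each marker list, smooth muscle markers ran from 3.65 to 7.46 in tumors and 5.86 to 8.67 in normal tissue, and leukocyte markers from 3.73 to 5.23 and 2.19 to 3.49. The WT-old tumor had B cell markers at 6.59, against at most 3.51 elsewhere. Epithelial markers ran from 7.79 to 9.11 in tumors and 8.74 to 9.49 in normal tissue, and no smooth muscle, leukocyte or epithelial marker was at 0 in any library. In bulk tissue, fewer cells of a type and less RNA per cell cannot be told apart.

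**Figure D1:**
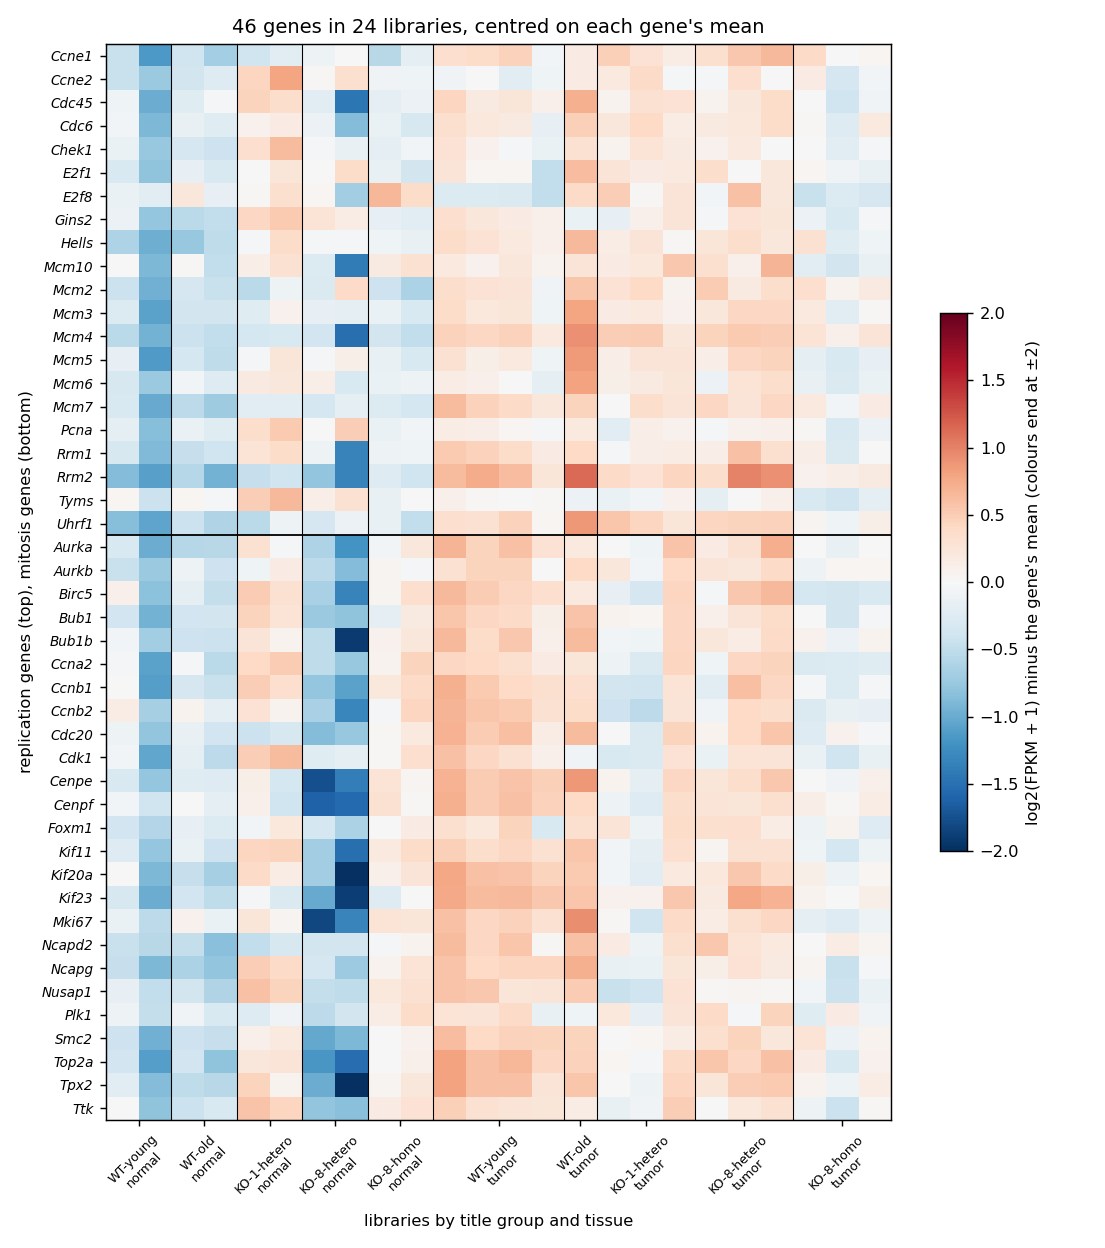
Heat map of 46 genes (rows, replication genes above the line and mitosis genes below) in 24 libraries (columns, by title group, normal then tumor); colour is log2(FPKM + 1) minus the gene's mean over all libraries. WT-young tumors are mostly red and WT normal libraries blue, and the KO-8-hetero normal libraries are blue mainly among mitosis genes.

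Levels per length differed widely among the genes. Pcna, the sliding clamp that holds DNA polymerase on its template, was the most abundant in every library, at 78.8 to 206 FPKM. At the low end were Ccne2, a cyclin E, at 0.810 to 4.25 FPKM, Chek1, the S phase checkpoint kinase, at 1.15 to 4.61 FPKM, and Cdc6, at 0.979 to 4.12 FPKM. Among tumors, Pcna and Tyms varied least, with a highest value 1.42 and 1.47 times the lowest. Among normal libraries, Cenpf and Cenpe, which encode large kinetochore proteins, varied most, by 11 and 9.92 times, and the lowest value of each was in the first KO-8-hetero normal library.

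In WT tissue the replication genes were higher in tumors. Of the 21, 16 rose and none fell (limma on log2(FPKM + 1), adjusted p below 0.05), with a median log2 difference of 0.67, where 15.5% of all 13799 genes tested rose, 14.8% fell and the median of all genes was 0.02. Rrm2, the small subunit of ribonucleotide reductase, measured 22.2, 24.1, 22 and 16.7 FPKM in the WT-young tumors and 32 in the WT-old tumor, against 7.2 and 6.07 in WT-young and 9.09 and 6.83 in WT-old normal tissue. The lowest tumor stood above the highest normal library, and the log2 difference was 1.54 (SE 0.215, limma adjusted p = 4.4e-05). Rrm1, the large subunit, rose by less, at 0.90 (SE 0.233).

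All 6 subunits of the MCM2-7 helicase, the ring that unwinds DNA ahead of the fork, rose in WT tumors. Mcm7 was at 59.6, 53, 50.1 and 45 FPKM in WT-young tumors and 52.6 in the WT-old tumor, and at 30.9, 18.5, 26.4 and 22.9 in the normal libraries. The groups did not overlap, and the log2 difference was 1.06 (SE 0.123, limma adjusted p = 9.1e-06). Mcm4 rose by 1.09 (SE 0.192), and Mcm2, Mcm3 and Mcm5 by 0.82 each. Mcm6 rose by 0.52 (SE 0.178), with ranges that overlapped. Of the factors that load or start the helicase, Cdc6 (0.54) and Gins2 (0.63) rose, while Cdc45 at 0.67 (adjusted p = 0.063, limma) and Mcm10 at 0.51 (adjusted p = 0.16, limma) did not pass.

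Of the chromatin genes that follow the fork, Hells, a remodeler needed for DNA methylation, rose by 1.04 (SE 0.138) and Uhrf1, which recruits the maintenance methyltransferase to new DNA, by 1.14 (SE 0.164). Ccne1 rose by 0.93 (SE 0.163), from 1.83 to 3.79 FPKM in normal libraries to 5.07 to 7.65 in tumors, and Ccne2 at 0.41 did not pass. E2f1, an activator of S phase genes, rose by 0.49, Chek1 by 0.52 and Pcna by 0.45. Tyms, thymidylate synthase, was at 11.9 to 13.9 FPKM in tumors and 9.29 to 13.3 in normal tissue, a log2 difference of 0.11 (SE 0.143, limma adjusted p = 0.60). E2f8, a repressor of the E2F family, was at -0.12 (SE 0.241). It was lower in each of the 4 WT-young tumors (1.88 to 2.37 FPKM) than in either WT-young normal library (2.69 and 2.48), while the WT-old tumor held 4.32.

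Of the 25 mitosis genes, 20 rose in WT tumors and none fell, with a median log2 difference of 0.85. By p, the condensin genes Ncapd2 and Ncapg came first. Ncapg measured 9.27, 8.13, 8.36 and 8.34 FPKM in WT-young tumors, 10.4 in the WT-old tumor, and 4.06, 2.73, 3.5 and 3.02 in the normal libraries. Every tumor lay above every normal library, with a log2 difference of 1.20 (SE 0.194, limma adjusted p = 0.00017). Ncapd2 rose by 1.02 (SE 0.144) and Smc2 by 1.04 (SE 0.207).

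Top2a, the topoisomerase that untangles sister chromosomes, ran from 45.4 to 59.7 FPKM in WT tumors and from 15.3 to 25.7 in WT normal tissue (log2 difference 1.26, SE 0.293). Kif23, a kinesin of the cleavage furrow, ran from 14.4 to 17.1 and from 4.36 to 7.54 (1.18, SE 0.277). Of the kinases, Aurka rose by 1.05, Aurkb by 0.74, Bub1 by 0.93, Bub1b by 0.85, Ttk by 0.67 and Cdk1 by 0.72. Ccnb1 rose by 0.92 and Ccna2 by 0.72. Mki67, the common proliferation marker, was higher in each WT tumor (27.2 to 42.4 FPKM) than in each WT normal library (14.8 to 23.1) at a log2 difference of 0.72, and did not pass over all genes (limma adjusted p = 0.10). Birc5, Ccnb2, Cenpf and Plk1 did not pass either, at 0.77, 0.65, 0.69 and 0.38.

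In all, 37 of the 46 genes had every WT tumor above every WT normal library, against 12.3% of all genes. The count of 36 called genes fell to 22 without the second WT-young normal library, which had the lowest mean of the 46 genes of any library. It fell to 23 without the WT-old libraries. The shares of all genes called in these fits are not given here, so the fall is not read as particular to the 46 genes. With WT-young tissue alone, in a fit over 10 title groups added after the values were seen, 40 rose, where 13.7% of all genes did. Without that library 15 rose, where 18.3% of all genes were called in either direction. Cell type markers moved with the comparison, since 10 of 10 smooth muscle and 4 of 12 epithelial markers fell and 5 of 11 leukocyte markers rose, and their part in the difference was not tested.

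**Figure D2:**
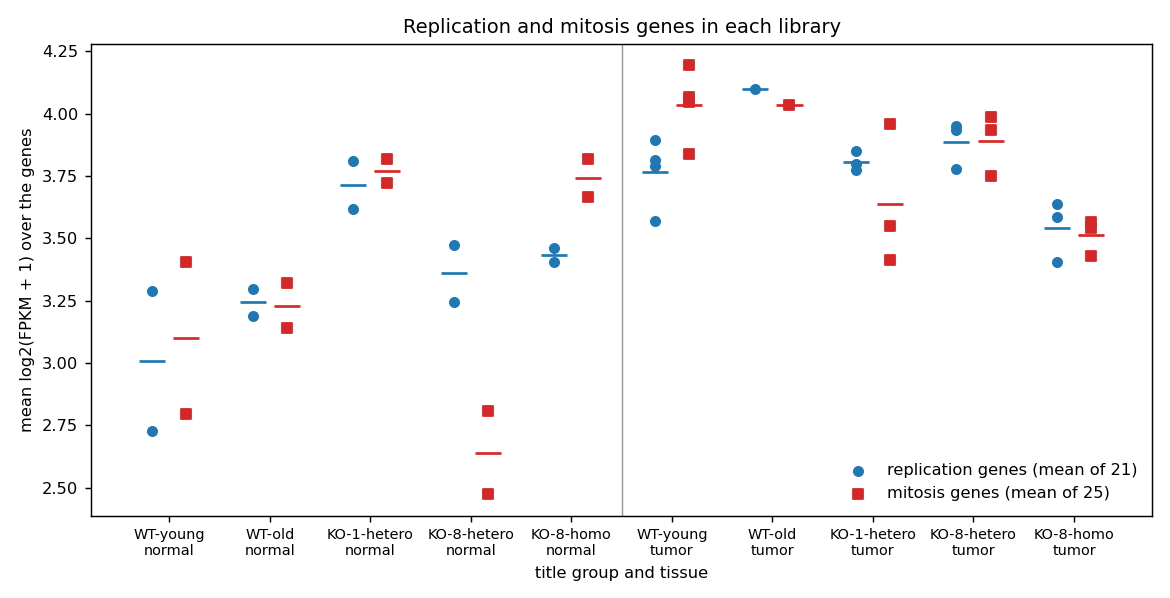
Mean log2(FPKM + 1) of the 21 replication genes (circles) and 25 mitosis genes (squares) in each library, by title group and tissue, with the group mean as a bar. In the KO-8-hetero normal libraries the mitosis mean, 2.81 and 2.47, lies below the replication mean, 3.47 and 3.25, and in the KO-8-homo group the mitosis means of tumors (3.43 to 3.57) lie below those of normal tissue (3.67 and 3.82).

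With the KO label, fewer of the genes differed between tumor and normal tissue. There 15 of 46 rose and 1 fell, 7 replication and 8 mitosis genes against Tyms, where 24.1% of all genes rose and 23.2% fell. The share that rose, 15 in 46, was not far from that of all genes, while the share that fell, 1 in 46, was well below it. Without either KO-8-hetero normal library the count called was 9, and the shares of all genes called there are not given here. Medians were 0.27 for replication and 0.37 for mitosis genes. Here 10 of 10 smooth muscle and 6 of 12 epithelial markers fell and 6 of 11 leukocyte markers rose, and their part was not tested.

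Rrm2 led here too. Its KO-labelled tumors ran from 14.9 to 28.8 FPKM (median 18.2) and the normal libraries from 4.95 to 11.5 (median 10.1). The ranges did not overlap, and the log2 difference was 1.03 (SE 0.169, limma adjusted p = 5.7e-05). Mcm4 (0.94, SE 0.151), Mcm7 (0.48, SE 0.0966) and Uhrf1 (0.58, SE 0.128) were the other 3 genes with all KO-labelled tumors above all their normal libraries, 4 of 46 in all, where 8.48% of all genes were so. Ccne1, Mcm2 and Mcm3 rose with overlap, and with 1 library left out in turn Mcm3 (limma adjusted p = 0.043) was called in 4 of 15 fits. Tyms fell by 0.36 (SE 0.112), from a median of 15.2 FPKM in normal tissue to 11.7 in tumors. That direction turned, to 0.11, when each library was scaled to the same summed FPKM, an alternative added after the values were seen. This scaling shifted the median of all genes to 0.44, and 37 of the 46 were then called, all higher. The share of all genes called with it is not given here, so the 37 are not read as a result about the 46 genes. Of all genes called, 50.9% were higher, against 87.8% with that scaling and 38.6% with each library centred on its median; for the WT label these shares were 51.1%, 78.7% and 38.9%.

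Among mitosis genes, Kif23 (0.86, SE 0.218) and Ncapd2 (0.43, SE 0.113) rose and were called in all 15 of those fits. Cenpf and Cenpe rose by 0.65 and 0.67, and Cdc20, the activator of the anaphase complex, by 0.47. Each of these 3 lost its call without either KO-8-hetero normal library. The other 3 called were Aurkb, Smc2 and Top2a. Without both KO-8-hetero normal libraries the median of the mitosis genes was -0.04. It was also -0.04 with array weights, which let each library have its own variance, and then 9 of the 46 were called higher and 6 lower, where 57.8% of all genes were called.

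The interaction of label and tissue, which tests whether the tumor against normal difference itself differed by label, was called for 0 of the 46 genes and 0% of all genes (limma). At an unadjusted p below 0.05, 20 of the 46 were lower with the KO label, against 4.74% of all genes in either direction, and medians were -0.49 and -0.61. Ncapg, at -1.22 (SE 0.247), and Hells, at -0.91 (SE 0.175), had the smallest p, both at an adjusted p of 0.38. With array weights 19 were called lower, and without the KO-8-hetero normal libraries 12. The shares of all genes called in these fits are not given here, so the counts are not read as a result about the 46 genes.

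Values for each KO group came from the fit over 10 title groups. In KO-8-hetero, 35 of 46 genes rose in tumors and none fell, 11 replication and 24 mitosis genes, where 21.9% of all genes rose. The median was 0.53 for replication and 1.20 for mitosis genes. Mki67 was at 24.4, 27.4 and 29.5 FPKM in KO-8-hetero tumors and 5.44 and 8.17 in their normal libraries (log2 difference 1.87, SE 0.195, limma adjusted p = 9.3e-06). Cenpf measured 4.14, 4.09 and 4.34 FPKM against 0.392 and 0.455, Kif23 11, 17.2 and 16.3 against 4.29 and 1.89, and Rrm2 18.2, 28.8 and 27.4 against 7.67 and 4.95. The KO-8-hetero normal libraries were low, since WT-young tumors held 27.2 to 33.2 FPKM of Mki67 and WT-young normal tissue 19.7 and 14.8. Cdk1 was the mitosis gene that did not pass (0.35). Xist was at 18.2 and 7.38 FPKM in these normal libraries and at 0.0519, 0.0455 and 48.8 in the tumors, and its part was not tested. Without the second, deviant normal library the count was 22, 4 replication and 18 mitosis genes, where 18.2% of all genes were called, and with array weights 16, where 7.92% were.

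Fewer genes were called in the other KO groups. In KO-1-hetero, 4 genes rose (Uhrf1 0.73, Rrm2 0.80, Mcm4 0.74 and Ncapd2 0.54) and 2 fell (Tyms -0.60 and Nusap1 -0.70), where 6.93% of all genes rose and 7.2% fell. In KO-8-homo, Mcm2 (0.71) and Mcm4 (0.64) rose and E2f8 (-0.86) fell, where 11.8% rose and 11.2% fell. Mki67 was at 22.1, 16.4 and 28.8 FPKM in KO-1-hetero tumors against 25.9 and 22.6 in normal tissue, and at 18.8, 18.1 and 20.3 against 26.5 and 26.1 in KO-8-homo. In the latter group every tumor lay below both normal libraries for Mki67 and 9 other mitosis genes, 10 of 25, where 32.7% of all genes did so. The mitosis medians were -0.14 and -0.17 and turned to 0.36 and 0.10 with each library scaled to the same summed FPKM. With 1 library left out the counts ran from 0 to 7 in KO-1-hetero and from 0 to 2 in KO-8-homo. With array weights they were 15 (7 higher, 8 lower) and 18 (6 higher, 12 lower), but 35.1% and 54.7% of all genes were then called, shares no smaller than those of the 46.

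Whether the tumor against normal difference itself differed between groups was tested after the values were seen. Between KO-8-hetero and KO-8-homo, which share no library, the difference was larger in KO-8-hetero for 22 of 46 genes, 19 mitosis and 3 replication genes, where 1.8% of all genes were called in that direction. Mki67 differed by 2.31 (SE 0.275, limma adjusted p = 0.00082), Cenpe by 2.11, Cenpf by 1.93, Top2a by 1.92 and Kif11, a spindle kinesin, by 1.78, and the replication genes were Rrm2 (1.35), E2f8 (1.45) and Mcm10 (1.68). The count ran from 4, without the first KO-8-homo normal library, to 29, without the first KO-8-hetero normal library. In these fits 0.0942% and 25.3% of all genes were called in either direction. The count was 6 without the second KO-8-hetero normal library and 8 with array weights, where 0.319% and 0.275% of all genes were called. Against WT-young, Ncapg was called in KO-1-hetero (-1.59, SE 0.244, limma adjusted p = 0.036), where 0.00725% of all genes were called lower. None was called for KO-8-homo (0% of all genes) or KO-8-hetero (0.0942%). At an unadjusted p below 0.05 the counts were 35 (KO-1-hetero), 38 (KO-8-homo) and 11 (KO-8-hetero), where 14.6%, 6.26% and 17.1% of all genes passed. The 11 of KO-8-hetero were thus a share near that of all genes. These 3 tests share the WT-young libraries. With 1 library left out the counts called ran from 0 to 23, 0 to 19 and 0 to 12, in the same order of groups. The 23 and 19 were without the first WT-young normal library, where 2.27% and 0.899% of all genes were called. The 12 was without the first KO-8-hetero normal library, where 22.1% of all genes were called, again a share near that of all genes.

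**Figure D3:**
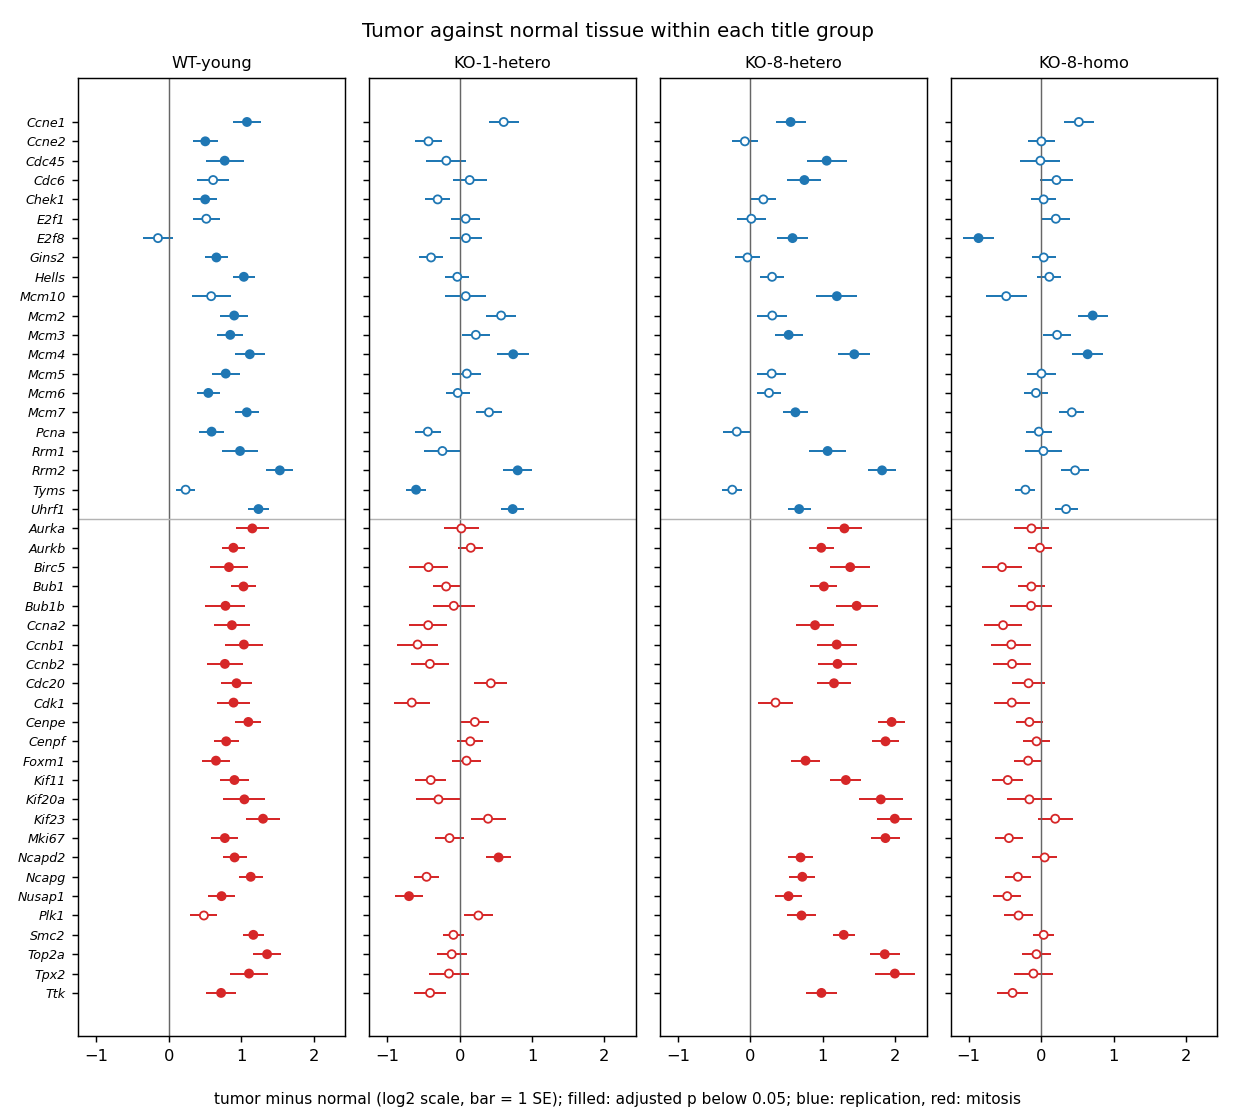
Tumor minus normal log2 difference with 1 SE for each of the 46 genes (rows) within 4 title groups (panels), from the fit over 10 title groups; filled points passed at an adjusted p below 0.05. In WT-young 40 points are filled and in KO-8-hetero 35, against 3 in KO-8-homo and 6 in KO-1-hetero.

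Tumors labelled KO were compared with WT tumors. None of the 46 genes was called (limma), where 1 gene of all tested was (0.00725%). All 25 mitosis genes had a log2 difference below 0, with a median of -0.37, and the replication genes had a median of -0.12. At an unadjusted p below 0.05 there were 5, all mitosis genes and all lower, against 8.31% of all genes in either direction. Nusap1, which bundles spindle fibres, ran from 7.83 to 13.7 FPKM (median 10.6) in KO-labelled tumors and from 13.2 to 16.8 (median 16.0) in WT tumors, a difference of -0.54 (SE 0.166, adjusted p = 0.42, limma). Ncapg ran from 4.08 to 7.46 and from 8.13 to 10.4, without overlap (-0.50, SE 0.162), and Cenpf was the other gene without overlap, where 0.449% of all genes had every KO-labelled tumor below every WT tumor. With array weights 26 of the 46 were called lower, where 17.1% of all genes were called in either direction.

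Against the 4 WT-young tumors alone, KO-8-homo tumors were lowest. None of the 46 was called, where 0.457% of all genes were. At an unadjusted p below 0.05, 27 genes were lower, 22 of them mitosis genes, against 10.1% of all genes in either direction. Every KO-8-homo tumor lay below every WT-young tumor for 29 of 46 genes, 21 mitosis and 8 replication genes, where 11.4% of all genes did. Medians were -0.56 for mitosis and -0.21 for replication genes. Birc5, the survivin gene of the chromosomal passenger complex, measured 29.1, 28.9 and 30 FPKM in KO-8-homo tumors against 59.0, 53.5, 50 and 47.4 in WT-young tumors (-0.81, SE 0.228, limma adjusted p = 0.17). Ccnb2 measured 19.1, 21.1 and 20.8 against 37.9, 35, 34.1 and 29.2 (-0.71, SE 0.221). In both genes the KO-8-homo tumors were close to one another and below all WT-young tumors. With array weights 35 genes were called lower, where 11.5% of all genes were called in either direction. Smooth muscle markers also differed, at 4.86 to 5.95 in KO-8-homo and 3.65 to 4.41 in WT-young tumors, and leukocyte markers at 4.34 to 5.15 and 3.73 to 4.35; their part was not tested.

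KO-1-hetero tumors had a mitosis median of -0.43 against WT-young tumors and a replication median of 0.03. None of the 46 was called, where 2.88% of all genes were. Unadjusted, 13 mitosis genes were lower and 1 replication gene, E2f8, was higher, where 19.1% of all genes passed. Markers of other cell types moved too. All 10 smooth muscle markers were above the WT-young range (median 1.82, 3 called), as were 8 of 11 leukocyte markers (2 called), and 5 of 7 B cell markers were called higher (median 2.16); their part was not tested. The 3 tumors were not alike, since Ccnb2 was at 17.3, 15.9 and 28.1 FPKM and Ccnb1 at 13.2, 13 and 21.1, replicate 3 being near the WT-young range (22 to 29.1 for Ccnb1). Replicate 3 was also the KO-1-hetero tumor with Xist, at 49.9 FPKM. With array weights 19 genes were called lower and 1 higher, where 20.7% of all genes were called in either direction.

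KO-8-hetero tumors had medians of 0.14 (replication) and -0.15 (mitosis) against WT-young tumors. None of the 46 was called, where 0.00725% of all genes were, and 2 passed at an unadjusted p, E2f8 (higher) and Nusap1 (lower), where 6.96% of all genes did. E2f8 measured 2.92, 5.11 and 3.77 FPKM in these tumors and 4.73, 3.15 and 3.89 in those of KO-1-hetero, above the 2.37, 2.35, 2.34 and 1.88 of WT-young tumors, while KO-8-homo tumors held 1.99, 2.37 and 2.23. The log2 differences for KO-1-hetero and KO-8-hetero were 0.60 and 0.59 (SE 0.183, adjusted p = 0.085 and 0.70, limma). All 6 hetero tumors stood above the WT-young tumors, and the homo tumors did not, with 2.37 FPKM as the highest value of both. The WT-old tumor, at 4.32 FPKM, lay within the range of the hetero tumors.

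Between KO groups, KO-8-homo tumors were below KO-8-hetero tumors, with a negative difference for all 46 genes and medians of -0.32 (replication) and -0.38 (mitosis). None was called, where 0.0507% of all genes were, and 15 were lower at an unadjusted p, where 5.8% of all genes passed. For 33 genes the 3 homo tumors lay below the 3 hetero tumors, where 4.76% of all genes did. Rrm2 was at 14.9, 15.5 and 16.1 FPKM against 18.2, 28.8 and 27.4 (-0.62, SE 0.176, limma adjusted p = 0.43). Mcm5 was at 17.5, 16.1 and 17.8 against 22.3, 27.1 and 27.9 (-0.55, SE 0.181). Between the tumors of the hetero groups none was called, nor was any gene of all (0%), and 1 (Rrm2, KO-1-hetero lower by a log2 difference of -0.39) passed at an unadjusted p, where 9.88% of all genes did, and the medians were -0.06 and -0.24.

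**Figure D4:**
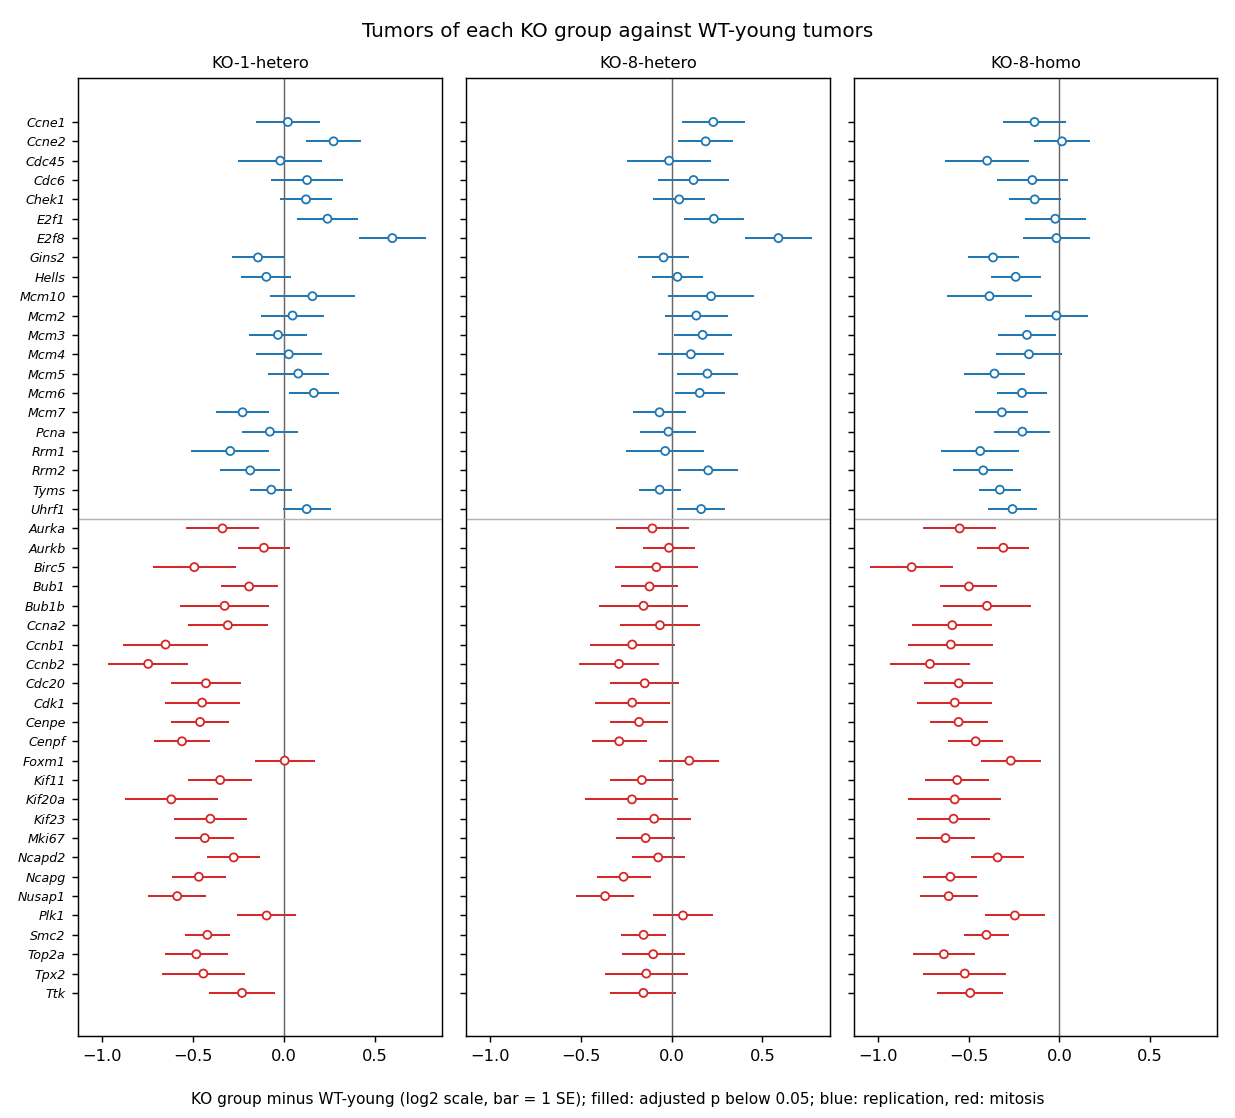
Log2 difference of tumors from WT-young tumors in the 3 KO groups (panels) with 1 SE, for each of the 46 genes (rows); all 3 panels share the same 4 WT-young tumors. No point is filled, so none passed, and the mitosis genes of KO-8-homo lie between -0.81 (Birc5) and -0.24 (Plk1).

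Normal tissue was compared next. With all KO-labelled normal libraries against the 4 WT normal libraries, none of the 46 was called, and 0% of all genes were (limma). At an unadjusted p below 0.05, 16 genes were higher, 12 replication and 4 mitosis genes, against 4.67% of all genes in either direction. Hells ran from 7.89 to 11.6 FPKM (median 8.6) in KO-labelled and from 3.98 to 5.86 (median 5.09) in WT normal tissue, without overlap (0.73, SE 0.133, adjusted p = 0.20, limma). Ccne2 was the other gene without overlap, where 0.355% of all genes had every KO-labelled library above every WT one. Without the KO-8-hetero normal libraries 5 genes were called higher, and the share of all genes called there is not given here. The median of the 21 replication genes was 0.36 and that of mitosis genes 0.24.

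In KO-1-hetero normal tissue, 9 genes were higher than in WT normal tissue, where 0.239% of all genes were. They were Ccne2 (1.06), Gins2 (0.95), Hells (0.89), Chek1 (0.89), Tyms (0.67), Ncapg (1.13), Nusap1 (0.92), Smc2 (0.71) and Bub1 (0.88). Ncapg measured 8.79 and 8.09 FPKM against 2.73 to 4.06 in WT normal libraries (SE 0.168, limma adjusted p = 0.0065). Ccne2 measured 3.08 and 4.25 FPKM against 0.810 to 1.52. Ccne2 was above and Ncapg near or within the range of the 5 WT tumors (1.63 to 2.41 and 8.13 to 10.4). For 35 of 46 genes both KO-1-hetero libraries lay above all 4 WT libraries, where 13.4% of all genes did. The count of 9 was 0 without either KO-1-hetero normal library and 1 without the second WT-young or the first WT-old normal library. It was 5 without the second WT-old one and 25 without the first WT-young one, where 4.8% of all genes were called. It was 3 without both WT-old libraries and 0 with each library scaled to the same summed FPKM, where the medians were still 0.39 and 0.59. Correlations of deviation from the tissue mean with GC content were lowest of all 24 in these libraries (r = -0.399 and -0.278). The median GC content was 46.6% for mitosis, 49.2% for replication and 49.9% for all genes with a length. The part of GC content was not tested.

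KO-8-hetero normal tissue went both ways. Hells (0.69) and Gins2 (0.69) were higher than in WT normal tissue, where 0.63% of all genes were. Cenpf (-1.43), Mki67 (-1.39), Cenpe (-1.18), Tpx2 (-1.04) and Kif23 (-0.89) were lower, where 2.68% of all genes were. Cenpe measured 0.530 and 0.973 FPKM against 3.18, 2.02, 3.37 and 3.33 in WT normal libraries, and Cenpf 0.392 and 0.455 against 3.14, 2.24, 3.31 and 2.75 (SE 0.172, limma adjusted p = 0.0002). For these genes both KO-8-hetero libraries lay below all WT ones, and Cenpf, Mki67 and Cenpe kept their calls in each of the 6 fits without 1 library. Without the deviant second library 3 genes were called, all lower, and without the first one 22 were, 7 higher and 15 lower, in a fit that called 30.7% of all genes. The count was 15 without the second WT-young normal library, where 7.58% of all genes were called. It was 3 without the first WT-old one or both WT-old libraries, and 0 with array weights.

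Within this group the mitosis genes were not all low. Cdk1 was at 14.9 and 15.4 FPKM, Nusap1 at 7.62 and 7.5 and Ccna2 at 17.9 and 14.8, all within their WT normal ranges (8.13 to 17.2, 6.95 to 9.79 and 11.7 to 25.4). Kif20a was at 5.37 and 1.29 FPKM and Bub1b at 6.87 and 1.99, low mainly in the second library. Replication genes split in the same way, since Mcm4 was at 10.8 and 4.41 FPKM, Rrm1 at 24.2 and 9.68 and Cdc45 at 6.19 and 2.06, while Mcm2, at 13.3 and 21.9, and Pcna, at 143 and 201, were higher in the second library. The second library was also the one with deviant correlations with length and GC content, and their part was not tested. In the first library these were r = 0.053 and 0.0872.

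In KO-8-homo normal tissue none of the 46 was called, where 0.0362% of all genes were. All 46 differences were above 0, with medians of 0.30 and 0.59, and 26 passed at an unadjusted p, 20 of them mitosis genes, against 6.94% of all genes. Both libraries lay above all WT normal libraries for 29 genes, 23 mitosis and 6 replication genes, where 6.75% of all genes did. Ncapd2 measured 11.5 and 12.6 FPKM against 6.23 to 8.45 (0.59, SE 0.166), and Top2a 33.6 and 36.4 against 15.3 to 25.7 (0.71, SE 0.196). Without the first WT-young normal library 4 genes were called, where 0.645% of all genes were. The 3 comparisons of normal tissue share the same 4 WT libraries.

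**Figure D5:**
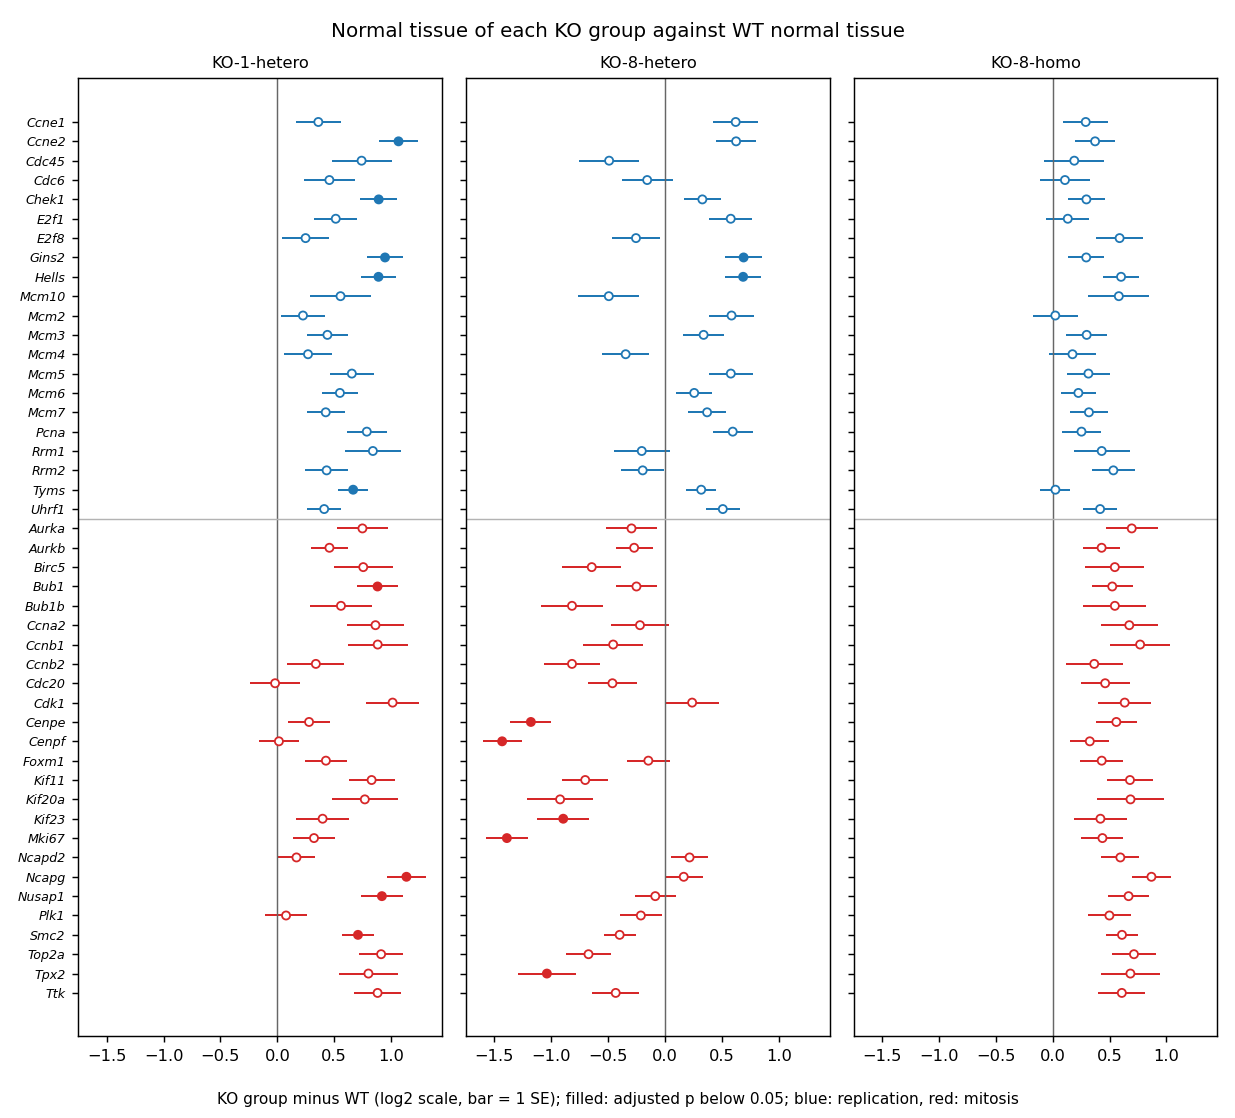
Log2 difference of normal tissue from WT normal tissue in the 3 KO groups (panels) with 1 SE, for each of the 46 genes (rows); filled points passed at an adjusted p below 0.05. The panel of KO-1-hetero has 9 filled points, all above 0, that of KO-8-hetero 2 above and 5 below, and that of KO-8-homo none.

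The balance of the 2 gene groups also varied. As the mean log2(FPKM + 1) of replication genes minus that of mitosis genes, the KO-8-hetero normal libraries stood at 0.67 and 0.77, and the other normal libraries between -0.41 and 0.09. The 45 other replication and 47 other mitosis genes listed gave 0.75 and 0.92 in those libraries and -0.05 to 0.43 elsewhere. The WT-young tumors ran from -0.30 to -0.23, the WT-old tumor stood at 0.07, and KO-labelled tumors ran from -0.16 to 0.43. Thus all 4 WT-young tumors had the balance furthest towards mitosis among tumors. Among normal libraries those of KO-8-homo did, at -0.41 and -0.21, with KO-1-hetero replicate 1 close to them, at -0.199. With the other genes listed, neither order held in full. KO-1-hetero tumor replicate 3, at 0.022, lay below WT-young tumor replicate 4, at 0.032. KO-1-hetero normal replicate 1, at 0.104, lay below KO-8-homo normal replicate 1, at 0.110. The remaining WT-young tumors and KO-8-homo normal replicate 2 stayed lowest of their tissue.

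Across the 14 tumors, the median correlation between 2 mitosis genes was r = 0.82 over 300 pairs, between 2 replication genes 0.58 over 210 pairs, and between the 2 kinds 0.46 over 525 pairs. Across the 10 normal libraries these were 0.81, 0.65 and 0.43. Tpx2 followed the mean of the other 24 mitosis genes most closely in tumors (r = 0.99) and Top2a in normal tissue (r = 0.99), while Plk1 in tumors (0.44) and Mcm2 in normal tissue (0.36, with the other 20 replication genes) followed least. These points share libraries, depth and title groups.

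Further cell cycle genes, listed beside the 46, gave a similar picture in WT tissue. Of 45 other replication genes 24 rose in WT tumors and none fell, with a median of 0.50, led by Lig1, the DNA ligase of the lagging strand (0.90), Rpa1, a single-strand binding protein (0.89), and the clamp loader Rfc3 (0.89). Of 47 other mitosis genes 37 rose and 1, Pttg1 (securin), fell (-0.74), with a median of 0.83. The WT share of all genes was 15.5% for a rise. With the KO label 12 of 45 and 14 of 47 rose and 6 and 2 fell, shares of risers close to the 24.1% of all genes. Gmnn, geminin, the inhibitor of origin licensing, fell by 0.69 (SE 0.110, limma adjusted p = 4.1e-05), from a median of 34.7 to 19.8 FPKM, and Pttg1 fell by 1.03 (SE 0.148), from 58.9 to 30.7. In KO-8-hetero normal tissue 6 of the 47 other mitosis genes were lower than in WT, led by Kif15, Kif20b and Aspm, and none was higher. Of all genes 2.68% were lower there. The count of these other genes without the deviant second library is not given here.

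Of 17 genes of G1 control, 8 rose and 2 fell in WT tumors and 6 rose and 3 fell in KO-labelled tumors, where 15.5% and 14.8% of all genes (WT) and 24.1% and 23.2% (KO label) did. Ccnd1, cyclin D1, rose in both, by 0.97 (SE 0.216) and 1.38 (SE 0.17), with a median of 76.1 FPKM in KO-labelled tumors and 27.2 in their normal libraries. Ccnd2 rose by 0.67 and 1.02. Of 7 CDK inhibitors, Cdkn2a, which encodes p16 and p19, rose by 3.87 (SE 0.501) and 3.57 (SE 0.393), from medians of 0.172 and 0.597 FPKM to 20.5 and 17.6. Cdkn1b, which encodes p27, fell by 0.40 and 0.38. Cdkn1a, which encodes p21, was at 0.08 and 0.07 and did not pass. None of these 24 genes was called between KO-labelled and WT tumors, where Ccnd1 was at 0.48 (SE 0.18, limma adjusted p = 0.48).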

How the data were processed

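The deposited tables hold 1 FPKM value per gene symbol for each of 24 libraries. Per the labels' protocols, RNA was extracted with the miRNeasy Mini kit and libraries were made with the TruSeq Stranded mRNA kit. The authors made the FPKM values with tools that the submitters' processing notes list without roles: TopHat2 2.1.1, Bowtie2 2.2.8, SAMtools 0.1.18, Cuffdiff 2.2.1 and the mm10 build. The annotation is not given in the sources used here. Read counts were not analysed, so depth is known only as a ratio between libraries, from the spacing of low values.

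From these values log2(FPKM + 1) was computed, and the 13799 of 24346 symbols with at least 1 FPKM in 4 or more libraries were tested with limma 3.58.1 (R 4.3.3, intensity trend), with Benjamini-Hochberg adjustment over all genes tested and a threshold of 0.05. The fit was checked on simulated data. A fold change on this scale understates the change of low genes. A fit over label and tissue and a fit over 10 title groups each used all 24 libraries. In the latter, WT normal tissue is the mean of WT-young and WT-old. The lone WT-old tumor is assumed to vary like the other groups. Any of the 46 genes could be named, and from each further list up to 3 genes per comparison by smallest p, besides D cyclins and CDK inhibitors; Gmnn and Pttg1 fall under this rule. Members, lists and tests were chosen with earlier results of these data known. Same-numbered tumor and normal libraries were checked for pairing, and alternatives covered the pseudocount, filter, normalization, weights, replicate block and each library left out.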

Additional observations from a re-analysis of the deposited data

Results flagged for a closer look

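In 245 tests over groups of 4 to 9 libraries, of the 46 genes, the 2 gene group means and the difference of these means, 13 values stood far from the rest of their group; chance flags about 1 in 20 groups, which here is 12.25. Among WT normal libraries, WT-young replicate 2 had the lowest Mcm3 (9.01 FPKM), Bub1 (1.55 FPKM), Smc2 (3.85 FPKM) and Cenpe (2.02 FPKM), and WT-old replicate 1 had the highest E2f8 (3.78 FPKM). Among WT tumors, the WT-old tumor had the highest Mcm6 (51.6 FPKM), E2f8 (4.32 FPKM) and replication minus mitosis mean log2 level (0.067), and WT-young replicate 1 had the highest Smc2 (13.5 FPKM). Within WT-young tumors, replicate 4 had the lowest Mcm4 (16.7 FPKM) and E2f8 (1.88 FPKM). Among KO-labelled normal libraries, KO-8-hetero replicate 2 had the lowest Mcm4 (4.41 FPKM) and KO-1-hetero replicate 2 the highest Hells (11.6 FPKM).

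For 22 of the 46 genes, limma's test of the difference itself called the tumor against normal difference larger in KO-8-hetero than in KO-8-homo. In that direction 1.8% of all genes were called. The count ran from 4 to 29 with 1 library left out, where 0.0942% and 25.3% of all genes were called. The difference was smaller in KO-1-hetero than in WT-young for 1, Ncapg, where 0.00725% of all genes were called lower. With array weights or the replicate block none of the 46 was called there, and 0% of all genes were.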

How the results depend on the processing

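Precision was limited by groups of 1 to 4 libraries, by depth known only as a ratio and by the unlike second KO-8-hetero normal library. The cause of the changes below was not tested. For tumor against normal tissue with the KO label (16 called), 10 were called with median centring, 37 with equal summed FPKM, and, in the fit over title groups, 6 in KO-1-hetero alone, 35 in KO-8-hetero alone and 3 in KO-8-homo alone. In those 3 groups 14.1%, 43.1% and 23% of all genes were called. The mitosis median for the KO label, 0.37, became -0.041 with array weights, -0.14 in KO-1-hetero alone, -0.17 in KO-8-homo alone and -0.0404 without the KO-8-hetero normal libraries. For the WT label (36 called), 23 were called without the WT-old libraries. With array weights 26 were called between KO-labelled and WT tumors, 19 for the interaction, 20 in KO-1-hetero tumors, 35 in KO-8-homo tumors and 0 in KO-8-hetero normal tissue. Without the KO-8-hetero normal libraries, 5 were called in normal tissue by label and 12 for the interaction. With quantile normalization 1 was called in KO-8-homo and 1 in KO-1-hetero tumors. Without the WT-old libraries 3 were called in normal tissue of either hetero group, where 0.138% (KO-1-hetero) and 1.15% (KO-8-hetero) of all genes were. With equal summed FPKM 0 were called in KO-1-hetero normal tissue. Equal summed FPKM, single-group fits and fits without a group were added after the values were seen.

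Of 8 same-numbered tumor and normal pairs 1 correlated above 0.1 (r = -0.16 to 0.35). With 2 normal libraries per group, their deviations from the group mean mirror each other, so this check cannot show pairing or its absence. Tumors 1 and 2 of both hetero groups had Xist at 0.0455 to 0.0621 FPKM, and their same-numbered normal libraries at 7.38 to 30.3. The numbers were not taken as pairs. With the replicate block, 10 were called for the KO label, 1 in KO-1-hetero tumors and 5 in KO-1-hetero normal tissue.

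With 1 library left out, counts called ran from 9 to 18 (KO label; 9 without either KO-8-hetero normal library) and 22 to 35 (WT label; 22 without WT-young normal replicate 2) between tumor and normal tissue, from 0 to 1 for the interaction (1 without KO-8-hetero normal replicate 2), KO-1-hetero tumors (1 without replicate 3) and KO-8-homo against KO-8-hetero tumors (1 without KO-8-hetero replicate 1), and in normal tissue from 0 to 25 (KO-1-hetero), 0 to 4 (KO-8-homo) and 3 to 22 (KO-8-hetero). For the other comparisons they stayed at 0. The highest counts in normal tissue, 25, 4 and 22, came where 4.8%, 0.645% and 30.7% of all genes were called.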
